A study of Mus musculus with 6 samples.

Results

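The miR-15, miR-16, miR-195 and miR-497 family was followed in small RNA libraries of mouse brain. Its 6 members are miR-15a-5p, miR-15b-5p, miR-16-5p, miR-195a-5p, miR-497a-5p and miR-322-5p. They were chosen by name, but with earlier results of these data known. All 6 were found among the 622 mature miRNA names of the tables. Of these, 5 passed the filter on low counts and were tested among 440 names. miR-15b-5p, with 3 to 17 counts per library, did not. All libraries were made from the brain of C57BL/6J mice, a widely used inbred strain. The Sham group (3 libraries, numbered 3, 6 and 7) had a sham operation and is labelled with no treatment. The GCI group (3 libraries, numbered 1, 2 and 3) went through cerebral ischemia-reperfusion, in which the carotid arteries on both sides were tied for 20 minutes. Age, sex, the part of the brain and the time of reperfusion are not given in these sources, and the labels do not say that each library is a separate animal. The p-values therefore measure the spread between these samples, which may be technical.

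A miRNA guides Argonaute to messenger RNAs that pair with its seed, bases 2 to 8 from the 5′ end, and lowers their translation and stability. The miR-15 and miR-16 family is known for repressing Bcl2, which blocks apoptosis, and genes that drive the cell cycle, among them Ccnd1, Ccne1, Cdk6 and Chek1. In humans the miR-15a and miR-16-1 locus is often deleted in chronic lymphocytic leukaemia. In mouse heart miR-195 takes part in the exit of muscle cells from the cell cycle after birth, and miR-497 has been studied in mouse brain ischemia for its action on Bcl2.

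The mature sequences are printed because the 6 members share a seed but not the rest. They are RefSeq sequences on GRCm38.p6, written 5′ to 3′ with the seed in capitals.
miR-16-5p: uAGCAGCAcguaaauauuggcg
miR-195a-5p: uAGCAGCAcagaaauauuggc
miR-15a-5p: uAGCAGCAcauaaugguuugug
miR-15b-5p: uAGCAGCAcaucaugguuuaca
miR-497a-5p: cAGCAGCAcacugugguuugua
miR-322-5p: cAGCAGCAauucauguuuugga
All 6 carry the same seed. RefSeq lists 10 mature mouse names with it, and the other 4 (miR-195b, miR-6342, miR-6353 and miR-6419) were not among the names analysed here. Beyond the seed, miR-16-5p and miR-195a-5p are nearest to each other, identical at 19 of 21 positions. Counted from 1 at the 5′ end of miR-16-5p, they differ by G10A and U11G, and both hold the run aaauauuggc at positions 12 to 21. The run was defined from these 2 members, and no other of the 371 tested names with a RefSeq sequence holds it. miR-15a-5p and miR-15b-5p match at 18 of 22 positions, and miR-15a-5p and miR-497a-5p share the run ugguuugu. miR-16-5p and miR-497a-5p match at 11 of 22 positions.

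The members come from 4 loci. On chromosome 14 the hairpins of miR-15a and miR-16-1 lie within 231 bp (chr14:61631880-61632110, minus strand, GRCm38, GENCODE vM21), inside the noncoding gene Dleu2. Mir15a lies in an intron there, and Mir16-1 overlaps a Dleu2 exon. On chromosome 3 those of miR-15b and miR-16-2 lie within 225 bp (chr3:69009772-69009996, plus strand), in an intron of Smc4, which codes for a condensin subunit. On chromosome 11 those of miR-497a and miR-195a lie within 419 bp (chr11:70234717-70235135, plus strand). The Mir497 hairpin overlaps Mir497b on the opposite strand. On the X chromosome the hairpin of miR-322 (chrX:53054255-53054349, minus strand) lies beside that of miR-503. Mature miR-16-5p is cut from 2 hairpins and reads of it cannot be assigned to either. The RefSeq hairpins show this, with the mature strand in capitals. The hairpins of miR-195a and miR-497a are added because the ratio of these neighbours is among the values compared.
Mir16-1: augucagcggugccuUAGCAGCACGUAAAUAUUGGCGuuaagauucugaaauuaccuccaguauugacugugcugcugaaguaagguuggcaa
Mir16-2: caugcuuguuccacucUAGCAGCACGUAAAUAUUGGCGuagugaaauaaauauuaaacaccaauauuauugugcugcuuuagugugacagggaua
Mir195a: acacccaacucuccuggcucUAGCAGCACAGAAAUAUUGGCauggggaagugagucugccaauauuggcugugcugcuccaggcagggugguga
Mir497: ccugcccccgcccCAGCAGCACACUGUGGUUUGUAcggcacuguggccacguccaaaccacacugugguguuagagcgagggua

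Total counts, with 1 entry per mature name, were 1423905 to 1750612 in the Sham and 1559288 to 2023475 in the GCI libraries. Levels are given as CPM, counts per 1000000 counts of a library after TMM scaling, which corrects for differences in library composition. The GCI libraries were not alike. Over the 440 tested names, the root-mean-square log2 difference from the mean of the Sham libraries was 0.990 in GCI library 1, 0.526 in library 2 and 0.677 in library 3. For each Sham library against the mean of the other 2 it was 0.358 to 0.404. The neuronal miR-124-3p, which marks brain tissue, stood at 12089 CPM or more in all 6 libraries. In bulk tissue, fewer cells of a type and less RNA per cell cannot be told apart.

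In Sham brain, miR-16-5p had the highest level of the family, at 2545 ± 141 CPM (SD, n = 3), rank 44 of the 440 tested names. It was followed by miR-195a-5p at 206 ± 11.1 CPM and miR-15a-5p at 187 ± 12.1 CPM, whose Sham values overlapped. miR-497a-5p stood at 66.2 ± 11.2 CPM, miR-322-5p at 15.8 ± 2.32 CPM and miR-15b-5p at 3.26 ± 0.681 CPM. Ligation of adapters favours some end sequences, so this order of counts may not be the order of abundance in the tissue. The 6 members together took 0.309% (95% Wilson interval 0.300% to 0.317%), 0.293% (0.285% to 0.302%) and 0.313% (0.305% to 0.322%) of the counts in Sham libraries 3, 6 and 7. In GCI libraries 1, 2 and 3 they took 0.603% (0.590% to 0.615%), 0.259% (0.251% to 0.267%) and 0.421% (0.412% to 0.430%). These intervals cover counting error only. The share was thus above every Sham value in GCI libraries 1 and 3 and below every Sham value in library 2. miR-16-5p made up 83.8% to 84.8% of the family's counts in Sham and 84.3% to 88.0% in GCI, so that the summed share follows mostly this member.

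After ischemia-reperfusion, 2 members had higher means (miR-16-5p and miR-195a-5p), 1 had a lower mean without overlap of the groups (miR-15a-5p), and miR-497a-5p and miR-322-5p differed by less than the spread between libraries. None of the 5 tested members passed an adjusted p of 0.05 over all 440 names (edgeR, quasi-likelihood test, Benjamini-Hochberg). The background was 10 calls in all (2.27%), and DESeq2 (5.91%) and limma-voom (2.27%) also called 0 members. At an unadjusted p under 0.05 edgeR gave 2 of the 5, against 16.8% of all tested names. These were miR-15a-5p, lower, as 6.36% of all tested names were, and miR-195a-5p, higher, as 10.5% were.

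miR-16-5p, the most sequenced member and a repressor of Bcl2 and of several cyclins, had levels of 2558, 2397 and 2678 CPM in Sham libraries 3, 6 and 7. In GCI libraries 1, 2 and 3 it stood at 5463, 2216 and 3615 CPM. GCI libraries 1 and 3 lay above all Sham values and GCI library 2 below all of them, so the groups overlapped. The GCI mean was 3765 ± 1628 CPM (SD, n = 3), and the log2 fold change was 0.57 ± 0.30 (SE, 1.48-fold, adjusted p = 0.337, edgeR). Permuting log2 CPM between the groups gave an exact two-sided p of 0.4, where 3 against 3 cannot go below 0.1.

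miR-195a-5p, which shares its 3′ run with miR-16-5p, had the same order of libraries within the GCI group. Its Sham values were 211, 213 and 193 CPM (libraries 3, 6 and 7), and those in GCI were 590, 197 and 310 CPM (libraries 1, 2 and 3). The Sham values lay close together, and GCI library 2 fell among them. The log2 fold change was 0.83 ± 0.35 (SE, 1.78-fold, unadjusted p = 0.0431, adjusted p = 0.283, edgeR), with an exact two-sided permutation p of 0.3. Without GCI library 1 the log2 fold change was 0.32 (adjusted p = 0.595, edgeR). For each 100 counts of miR-16-5p there were 8.24, 8.88 and 7.20 of miR-195a-5p in Sham libraries 3, 6 and 7 and 10.8, 8.89 and 8.57 in GCI libraries 1, 2 and 3. How many mismatches the alignment allowed is not stated in these sources. With 2 differing bases between them, some reads of the more abundant miR-16-5p could be counted as miR-195a-5p, so the level of miR-195a-5p is uncertain.

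miR-15a-5p, which shares the Dleu2 locus with the miR-16-1 copy of miR-16-5p, went the other way. Its Sham values were 196, 173 and 190 CPM (libraries 3, 6 and 7), and its GCI values were 126, 146 and 111 CPM (libraries 1, 2 and 3). All 3 GCI values lay below all 3 Sham values, which held for 11.6% of all tested names. The means were 187 ± 12.1 and 127 ± 17.7 CPM (SD, n = 3 each). The log2 fold change of −0.55 ± 0.20 (SE, 0.682 of the Sham level, unadjusted p = 0.0212) did not pass over all names (adjusted p = 0.209, edgeR). The exact two-sided permutation p was 0.1, the lowest that this design can give.

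miR-497a-5p, encoded beside miR-195a, had Sham values of 64.3, 56.1 and 78.3 CPM (libraries 3, 6 and 7) and GCI values of 83.0, 55.5 and 56.5 CPM (libraries 1, 2 and 3). Library 1 was the highest and library 2 the lowest of the GCI group, as for miR-195a-5p, but libraries 2 and 3 were nearly equal and the groups covered nearly the same range. Its log2 difference of −0.033 ± 0.24 (SE, adjusted p = 0.953, edgeR) had a 95% interval of −0.58 to 0.52, and its sign turned with RLE or upper-quartile scaling (0.018 and 0.0057). miR-322-5p, the mouse counterpart of human miR-424 and a partner of miR-503 in repressing the cell cycle phosphatase Cdc25a in mouse muscle cells, stood at 16.2, 17.8 and 13.2 CPM in Sham and at 16.1, 11.2 and 13.5 CPM in GCI. These values overlapped too, with a log2 difference of −0.21 ± 0.27 (SE, adjusted p = 0.694, edgeR) and a 95% interval of −0.83 to 0.41. For miR-15b-5p the counts were 5, 4 and 7 in Sham and 17, 5 and 3 in GCI, near the limit of detection (3 counts). miR-15b-5p did not pass the filter on low counts, so its level was not tested.

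**Figure D1:**
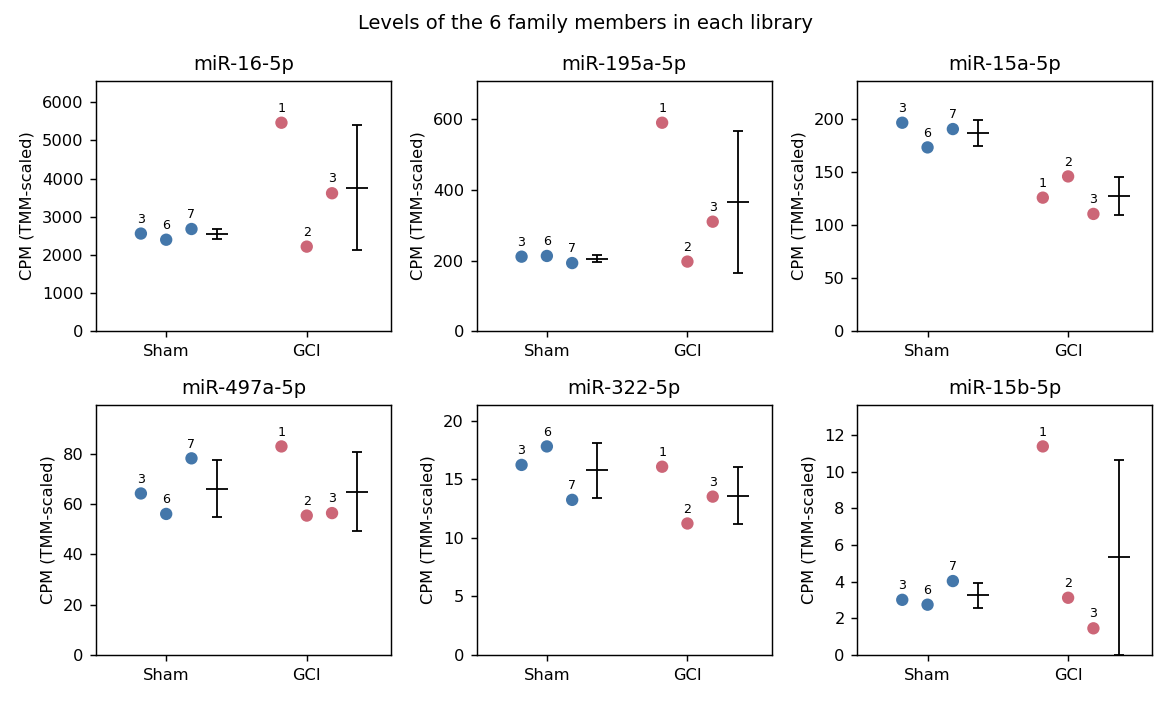
CPM of each member (vertical axes, linear, each panel with its own scale) in the Sham libraries (blue) and GCI libraries (red), each point marked with its library number, with bars for the mean and SD of 3 libraries. miR-16-5p and miR-195a-5p are highest in GCI libraries 1 and 3 (5463 and 3615 CPM, 590 and 310 CPM), while the 3 GCI values of miR-15a-5p (111 to 146 CPM) lie below its Sham values (173 to 196 CPM).

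**Figure D2:**
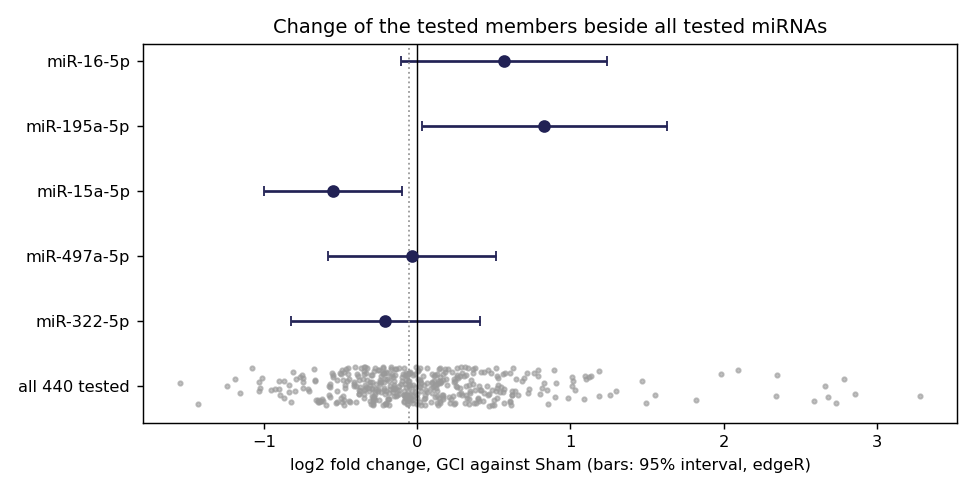
Log2 fold change of GCI against Sham (horizontal axis) for the 5 tested members, with 95% intervals from edgeR, and below them each of the 440 tested names as a grey point. The solid line marks 0 and the dotted line the median of all tested names (−0.054). miR-195a-5p (0.83) and miR-16-5p (0.57) lie to the right, miR-15a-5p (−0.55) to the left, all within the spread of the grey points.

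The calls depended on GCI library 2, the GCI library nearest to Sham over all tested names. Without it, miR-195a-5p (log2 fold change 1.12, adjusted p = 0.0199) and miR-16-5p (0.83, adjusted p = 0.0228) rose and miR-15a-5p fell (−0.66, adjusted p = 0.0315, edgeR, Benjamini-Hochberg). In that fit 21.9% of 456 tested names passed (12.7% higher, 9.21% lower), against 2.27% with all libraries. Without any of the other 5 libraries 0 members passed, and the log2 fold change of miR-16-5p ranged from 0.21 (without GCI library 1) to 0.66 (without GCI library 3). That of miR-15a-5p ranged from −0.55 (without Sham library 6) to −0.40 (without GCI library 3).

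Ratios of counts within a library do not depend on scaling. For each 100 counts of miR-16-5p there were 7.68, 7.22 and 7.11 counts of miR-15a-5p in Sham libraries 3, 6 and 7. In GCI libraries 1, 2 and 3 there were 2.30, 6.58 and 3.06. All GCI values lay below all Sham values, GCI library 2 only by a little. The log2 ratio was lower by a mean of 1.03, that is 0.490 of the Sham ratio. Its exact two-sided permutation p was 0.1, or 0.4 after Benjamini-Hochberg adjustment over the 8 ratios computed. Since miR-16-5p is also cut from Mir16-2 on chromosome 3, this ratio does not isolate the locus on chromosome 14. miR-195a-5p and miR-497a-5p come from neighbouring hairpins of 1 strand of chromosome 11. Their ratio was 3.27, 3.78 and 2.46 in Sham and 7.08, 3.54 and 5.47 in GCI. It was above every Sham value in GCI libraries 1 and 3 and within the Sham range in library 2 (log2 difference 0.72, two-sided exact permutation p = 0.2, 0.4 after adjustment).

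The passenger strands, the arms that are usually degraded, had low levels. However, miR-322-3p was not scarce beside miR-322-5p, nor was miR-15b-3p beside the equally low miR-15b-5p. miR-16-1-3p, the passenger strand specific to the chromosome 14 hairpin, stood at 35.4, 34.2 and 28.2 CPM in Sham and at 55.6, 27.4 and 42.0 CPM in GCI. Its order within the GCI group, library 1 highest and library 2 lowest, was that of miR-16-5p (log2 difference 0.35 ± 0.28, SE, adjusted p = 0.540, edgeR). The ratio of miR-16-5p to miR-16-1-3p was 71.6, 69.4 and 94.0 in Sham and 97.7, 79.9 and 85.6 in GCI, and these overlapped (two-sided exact permutation p = 0.3, 0.48 after adjustment). miR-15a-3p had 6, 1 and 5 counts in Sham and 0, 0 and 2 in GCI, and miR-195a-3p 1, 1 and 3 against 7, 1 and 9. miR-15b-3p had 5, 1 and 6 counts in Sham and 17, 8 and 6 in GCI, beside 5, 4 and 7 and 17, 5 and 3 of miR-15b-5p. At such counts no arm ratio could be read. miR-322-3p stood at 6.61 to 11.6 CPM in Sham and 7.24 to 13.4 CPM in GCI.

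**Figure D3:**
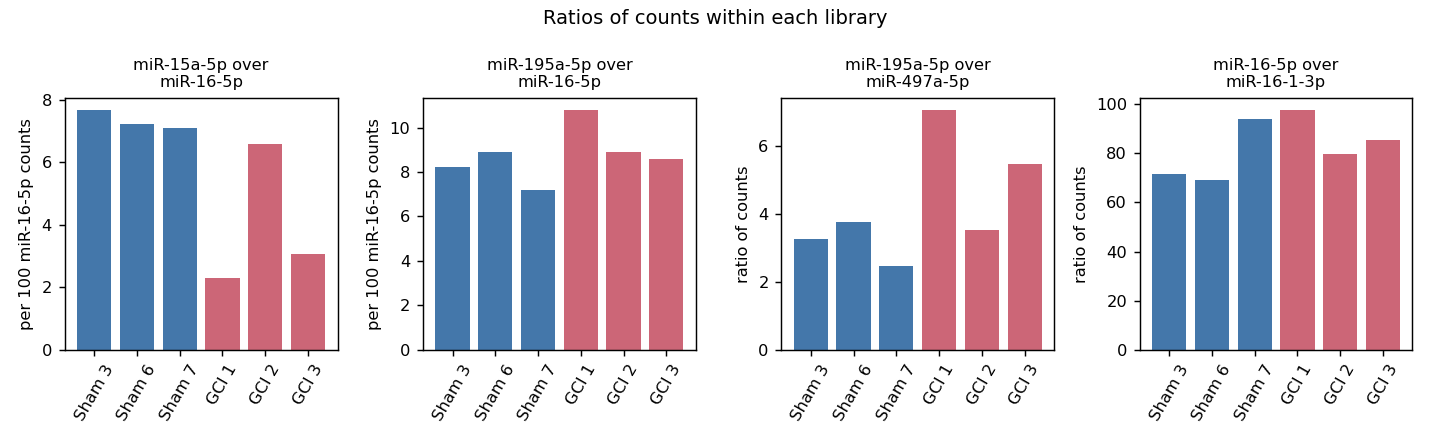
Ratios of counts (vertical axes from 0) in each library (horizontal axis, Sham blue, GCI red); the first and second panels give counts per 100 counts of miR-16-5p. miR-15a-5p over miR-16-5p is lowest in GCI libraries 1 and 3 (2.30 and 3.06 per 100), and miR-195a-5p over miR-497a-5p is highest there (7.08 and 5.47).

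Likeness of profiles was measured as the root-mean-square difference of log2 CPM, each name centred on its own mean, over the 6 libraries. miR-16-5p and miR-195a-5p, from different chromosomes, differed by 0.172, rank 10 of 439 names for miR-16-5p and rank 8 for miR-195a-5p. Some reads of miR-16-5p could be counted as miR-195a-5p, as stated above, and their part in this likeness was not tested. miR-195a-5p and its neighbour miR-497a-5p differed by 0.498 (rank 122 for miR-195a-5p), and miR-15a-5p and miR-16-5p by 0.684 (rank 374 for miR-15a-5p). Outside the family, the names nearest to miR-16-5p were miR-142a-3p (0.0948), a miRNA of blood-forming cells, and miR-10a-5p (0.0951). Those nearest to miR-195a-5p were miR-93-5p (0.0917), of the miR-106b cluster, and miR-542-3p (0.123). miR-15a-5p was nearest to miR-129-1-3p (0.0900) and miR-204-5p (0.120), miR-497a-5p to miR-150-5p (0.0824) and miR-9-5p (0.131), and miR-322-5p to the neuronal miR-132-3p (0.0711) and miR-124-3p (0.0920). These are descriptions over 6 libraries that share the same scaling.

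**Figure D4:**
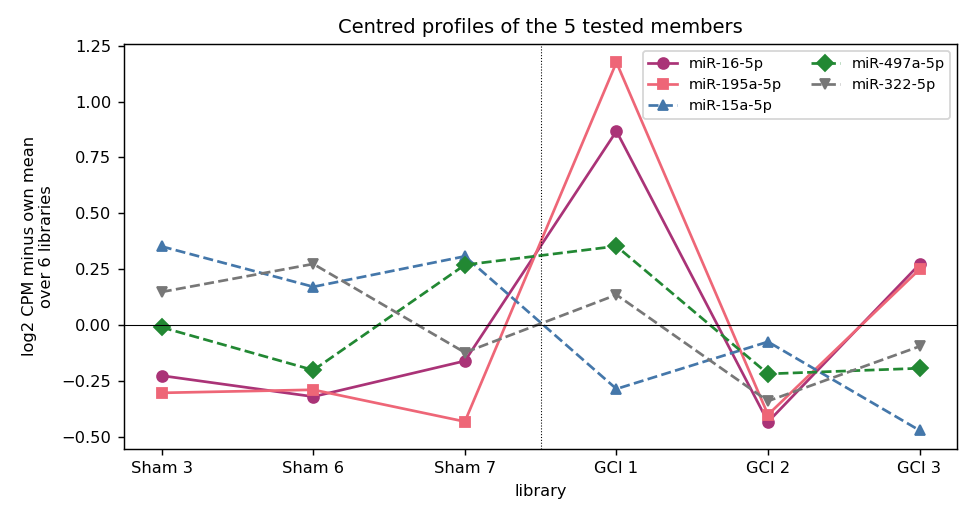
Log2 CPM of each tested member minus its own mean over the 6 libraries (vertical axis) in each library (horizontal axis; the lines only join the points of a member, and the dotted line parts Sham from GCI). miR-16-5p and miR-195a-5p stay close together, at 0.87 and 1.18 in GCI library 1, while miR-15a-5p is below its mean there (−0.29) and in GCI libraries 2 and 3.

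Related names outside the 6 are shown for their seeds, again in capitals.
miR-503-5p: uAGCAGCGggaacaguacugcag
miR-103-3p: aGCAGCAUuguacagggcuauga
miR-107-3p: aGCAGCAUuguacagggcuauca
The seed of miR-503-5p ends in another base, and those of miR-103-3p and miR-107-3p hold the family's letters shifted by 1 base. miR-503-5p, at 5.17 ± 3.01 CPM in Sham and 5.89 ± 1.08 CPM in GCI (SD, n = 3 each), was close to the detection limit. miR-103-3p measured 1262 ± 310 and 1564 ± 231 CPM and miR-107-3p 274 ± 46.4 and 264 ± 73.6 CPM, with overlapping groups. Of the 8 measured mates of miR-322 in the X-chromosome cluster, its own passenger strand included, 5 were tested and 0 passed the adjusted threshold (0 also by DESeq2 or limma-voom). At an unadjusted p under 0.05 edgeR gave 1 of the 5, higher, against 10.5% of all tested names. That 1 was miR-542-3p, at 209, 183 and 216 CPM in Sham and 632, 203 and 297 CPM in GCI. Its log2 fold change was 0.89 ± 0.37 (SE, adjusted p = 0.276, edgeR), against −0.21 for miR-322-5p. miR-351-5p stood at 11.5 to 15.6 CPM in Sham and at 33.5, 13.7 and 10.1 CPM in GCI, high in library 1 alone.

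Other miRNAs known to act on the same processes were read from lists drawn from textbook knowledge, with earlier results of these data known. Of 9 tested miRNAs known to repress Bcl2 or its relative Mcl1 (miR-34a, miR-204, and the miR-181 and miR-29 families), 0 passed the adjusted threshold and 0 had an unadjusted p under 0.05 by edgeR. DESeq2 and limma-voom also called 0. Of these, 7 had negative log2 differences, with a median of −0.29 against −0.054 over all tested names. Those with the smallest p were miR-29b-3p, at 5476 ± 198 CPM in Sham and 4120 ± 554 CPM in GCI, and miR-181c-5p, at 237 ± 7.43 and 169 ± 44.1 CPM (SD, n = 3 each). Of 19 tested miRNAs known to act on cell cycle genes, edgeR, DESeq2 and limma-voom called 0, and 2 were higher at an unadjusted p under 0.05 by edgeR, which 10.5% of all tested names were. These were miR-34c-5p, a p53 target, at 1439 ± 192 and 2375 ± 680 CPM, and miR-93-5p, at 246 ± 4.22 and 409 ± 197 CPM. miR-93-5p stood at 627, 244 and 355 CPM in GCI libraries 1, 2 and 3, the order of miR-195a-5p. The list held 10 positive and 9 negative log2 differences with a median of 0.17.

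The order of GCI libraries seen in miR-16-5p and miR-195a-5p was shared by summed markers of several cell types. The 5 red blood cell miRNAs summed to 486 to 554 CPM in Sham and to 833, 537 and 707 CPM in GCI libraries 1, 2 and 3. Of the 4 tested, 3 had positive log2 differences, namely miR-486a-5p, miR-486b-5p and, at only 0.040, miR-144-3p. The order of this sum is that of miR-486a-5p and miR-486b-5p. miR-486a-5p stood at 91.5 to 110 CPM in Sham and at 126 (library 2) to 274 CPM (library 1) in GCI. miR-486b-5p stood at 92.1 to 116 CPM in Sham and at 275, 128 and 197 CPM in GCI libraries 1, 2 and 3. For both the groups did not overlap, but neither passed the adjusted threshold (adjusted p = 0.128 and 0.133, edgeR). Both were higher at an unadjusted p under 0.05, as 10.5% of all tested names were. The share of names higher without overlap is not given here. The counts of miR-486a-5p and miR-486b-5p were nearly the same in every library, so that largely 1 signal enters the sum under both names. miR-451a, the defining red blood cell miRNA, stood at 279 to 333 CPM in Sham and at 256, 260 and 282 CPM in GCI, and did not follow that order. Nor did miR-144-3p, at 20.1, 18.7 and 28.0 CPM in GCI libraries 1, 2 and 3. miR-16-5p is itself abundant in red blood cells. The 5 leukocyte miRNAs summed to 411 to 484 CPM in Sham and to 740, 419 and 529 CPM in GCI, with 4 of 5 log2 differences positive. The largest part, miR-150-5p, stood at 293 to 366 CPM in Sham and 407, 308 and 309 CPM in GCI (log2 difference 0.046). miR-223-3p had a lower mean, at 6.91 to 21.6 CPM in Sham and 2.68, 0.623 and 16.9 CPM in GCI (log2 difference −0.96). miR-142a-3p, miR-142a-5p and miR-155-5p had the order of the sum. The 3 oligodendrocyte miRNAs summed to 861 to 898 CPM in Sham and to 2295, 878 and 1477 CPM in GCI, with 2 of 3 positive. Most of this sum was miR-219a-2-3p, at 544 to 630 CPM in Sham and 1986, 578 and 1114 CPM in GCI. In GCI libraries 1, 2 and 3, miR-219a-5p stood at 82.3, 143 and 105 CPM and miR-338-3p at 226, 156 and 258 CPM. Neither had the order of the sum. The 9 epithelial and pituitary miRNAs summed to 2017 to 7236 CPM in Sham and to 51003, 22116 and 27273 CPM in GCI, with 9 of 9 positive. Of these, 8 passed the adjusted threshold (edgeR), against 2.27% of all tested names. Unlike miR-16-5p, this sum lay above Sham in GCI library 2 as well. miR-182-5p, miR-183-5p, miR-200a-3p, miR-141-3p and miR-375-3p had the order of the sum. miR-200b-3p, miR-200c-3p and miR-429-3p were lowest in GCI library 3 (1740, 648 and 680 CPM), and miR-96-5p in library 1 (303 CPM). The 4 vessel miRNAs summed to 35185 to 49835 CPM in Sham and to 26815 to 45231 CPM in GCI, with 2 of 4 positive. The 7 neuronal miRNAs summed to 97927 to 113359 CPM in Sham and to 90510 to 101926 CPM in GCI, with 7 of 7 negative. No marker was at 0 in any library. The part of these cells in the family's values was not tested.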

How the data were processed

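Small RNA libraries were made from 1 µg of TRIzol-extracted total RNA by NEBNext small RNA chemistry, which ligates both adapters, and size-selected for inserts of 15 to 35 nt, per the labels' protocols. Per the submitters' processing notes, the tools included cutadapt and Bowtie; tool versions, the build and the reference for miRNAs are not given in these sources. The authors deposited unnormalized whole-number read counts, in 727 rows per library. Of 50 repeated names, 22 had identical counts in all libraries. Keeping the row of highest total left 622 names. miR-16-5p was a repeated name, with rows of 4259 and 4239 counts in Sham library 3 and 8161 and 8159 in GCI library 1. With repeated rows summed, its log2 fold change was 0.63. The family's share of counts then differed by 0.19 percentage points between the groups, against 0.12 with 1 row kept. The rows of miR-16-5p were nearly the same in every library, so summing them gives this member more weight in the share. Whether they hold the same reads is not stated in these sources. Within a group, pairs of libraries differed beyond counting noise (chi-square per degree of freedom at least 44.6), so none was treated as the same library deposited again. This does not show that they came from separate animals.

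Counts were tested with edgeR 4.0.16 (R 4.3.3) by the quasi-likelihood test on all 6 libraries with group as the term, after filterByExpr (minimum count 10, total 15; 440 names) and TMM scaling, with Benjamini-Hochberg adjustment over all tested names. The filter kept 5 of the 6 members. Standard errors were taken from the F statistic, and log2 CPM used a prior count of 2. Ratios of counts had 0.5 added to both sides (not in values per 100 counts) and were compared by two-sided exact permutation tests (scipy 1.17.1). A limit of 3 counts corresponds to 1.45 to 2.05 CPM. The script was tested on simulated data, where it called 77.3% of the names changed 2-fold and 2.12% of the unchanged names. Changes smaller than 2-fold, such as those of the members, were not simulated. Alternatives were other scalings and filters, DESeq2 1.42.0, limma-voom (limma 3.58.1), robust estimation, summed repeated rows and each library left out in turn. The text names the members, their passenger strands, seed relatives and cluster mates, and the 2 names most like each member. From the lists of Bcl2 and cell cycle miRNAs it names those with an unadjusted p under 0.05, or else the 2 with the smallest p. The members and lists were chosen with earlier results of these data known.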

Additional observations from a re-analysis of the deposited data

How the results depend on the processing

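With all 6 libraries the edgeR count over all names was 10 higher and 0 lower, with 74 names at an unadjusted p under 0.05. It was 4 higher with RLE size factors and 22 higher and 4 lower with DESeq2, and ranged from 0 to 58 higher and from 0 to 42 lower with single libraries left out. Leaving out Sham library 6 or GCI library 3 gave 0 calls (44 and 57 names had an unadjusted p under 0.05), against 1 without GCI library 1, and 58 higher and 42 lower without GCI library 2. Among the members the calls ranged from 0 to 2 higher and from 0 to 1 lower with single libraries left out, the calls coming without GCI library 2, and were 0 under the other 14 alternatives. The log2 fold changes of miR-15a-5p, miR-16-5p, miR-195a-5p and miR-322-5p kept their direction in all 15 alternatives. That of miR-497a-5p (−0.033) turned to 0.018 with RLE or DESeq2, 0.0057 with upper-quartile scaling, 0.0013 with a filter of 10 CPM in 3 libraries and 0.031 with summed repeated rows. It was 0.11 without Sham library 7, 0.058 without GCI library 2 and 0.12 without GCI library 3, in a range of −0.23 to 0.12 with single libraries left out. The log2 ratio of miR-15b-5p to miR-16-5p, −0.26 with all libraries, ranged from −0.71 to 0.39, the latter without GCI library 3, where miR-15b-5p had 3 counts. The difference in the family's share of counts ranged from 0.035 percentage points (without GCI library 1) to 0.21 (without GCI library 2). The causes were not tested. No paired analysis was possible because the groups share 1 library number. Depth left miR-15b-5p and the passenger strands miR-15a-3p, miR-15b-3p and miR-195a-3p too low to test.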
